A study of Homo sapiens with 60 samples.

Results

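Sibjeondaebo-tang and Palmul-tang are multi-herb formulas of Korean tonic medicine, and the step examined here is their water extracts at 100 against 20 µg/mL in A549 cells. Members were chosen by label, as every library of these extracts at these doses, which gave 10 of the 60 libraries. At each dose there were 3 Sibjeondaebo-tang libraries (replicates 1, 2 and 3) and 2 Palmul-tang libraries (replicates 2 and 3), all collected 24 h after treatment. A549 is 1 established human lung carcinoma line, so the data describe 1 genetic background, with no other cell type in the dish. The vehicle libraries (n = 3) were labelled 0.1% DMSO, whereas the series' design text gives 2%. That text also says that extracts with an IC20 (the concentration that inhibits cells by 20%) under 500 µg/mL were given at the IC20 and its dilutions, while the labels give 20, 100 and 500 µg/mL for both formulas. Nothing in the labels ties the replicates to separate cultures. The p-values therefore cover only the variation among these libraries, which may be technical.

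Lung epithelial cells, from which A549 derives, answer inflammatory signals by making neutrophil-attracting chemokines such as CXCL1 and CXCL5. They also make secreted defence proteins such as serum amyloid A and lipocalin. The transcription factor NF-kB drives many of these genes through kappa B sites in their promoters. Proliferating cells follow another programme, in which E2F factors switch on DNA replication genes at the entry into S phase and the DREAM and MYBL2 complexes control mitotic genes, whose promoters often carry CCAAT boxes and a CHR element (cell cycle genes homology region).

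Genes of both programmes were among those called at this step, with small changes. Of 16153 genes tested, 60 differed between 100 and 20 µg/mL at an adjusted p under 0.05 (quasi-likelihood test of edgeR, adjusted by Benjamini-Hochberg, with extract as covariate), which is 0.371% of the genes. Of these, 40 rose (0.248%) and 20 fell (0.124%). At an unadjusted p under 0.05, 793 genes (4.91%) were higher and 699 (4.33%) lower, and DESeq2 called 125 (0.774%), 82 of them higher (0.508%). Of the 60 genes, 53 reached 5 CPM (counts scaled to a common library size) on average at either dose, and the size of their log2 change ran from 0.13 to 0.54, with a median of 0.19. The median over all genes tested was -0.000192. The libraries of the doses did not overlap for 57 of the 60 called genes, with SERPINA3 and TNFRSF6B among the exceptions. Of all genes, 1.21% had every 100 µg/mL library above every 20 µg/mL library and 0.904% had every one below. The 60 genes were called on these same libraries, which favours such separation, so lack of overlap in a called gene is a description and no separate evidence. Without Sibjeondaebo-tang 20 µg/mL replicate 3 the test called 36 genes, and without Palmul-tang 20 µg/mL replicate 3 it called 37.

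Totals of the 10 libraries ran from 22161388 to 25774725 counts. Sibjeondaebo-tang 20 µg/mL replicate 2 stood apart: 20.4% of its counts came from mitochondrially encoded genes, against 15.3% to 17.5% in the other 9, and its chi-square per degree of freedom against its replicates was 10.2 and 13.3, against 2.72 to 5.98 for the other replicate pairs. Over genes above 5 CPM, the library's median absolute log2 distance from its replicates was 0.0765, against 0.065 to 0.0737 for the other 9. Without this library, 72 genes were called (39 higher and 33 lower). All 13 mitochondrially encoded genes had a negative log2 change, against 8098 of all 16153 genes tested. Of these 13 genes, 0 were called (DESeq2 also 0) and 5 were lower at an unadjusted p under 0.05, against 4.33% of all genes. Their median of -0.12 became -0.03 without Sibjeondaebo-tang 20 µg/mL replicate 2. The A549 markers KRT8, KRT18, AKR1B10 and ALDH1A1 were each at 2298 CPM or more in every one of the 10 libraries, while the lung lineage factor NKX2-1 and the surfactant gene SFTPB were each below 1.5 CPM. Summed markers of other cell types overlapped between the doses. The 9 fibroblast markers summed to 16.8 to 20.4 CPM at 20 µg/mL and 16.9 to 19.2 CPM at 100 µg/mL, and the 10 immune markers to 20.5 to 25.0 CPM and 23.7 to 27.3 CPM. The 8 endothelial markers summed to 20.2 to 23.5 CPM and 20.5 to 23.7 CPM, and the 10 hepatocyte markers, mostly FGB, to 998 to 1048 CPM and 1041 to 1095 CPM. The immune markers PTPRC, MS4A1 and FCGR3A and the endothelial marker ERG had 0 counts in all 10 libraries.

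Promoters of 3 genes that rose are shown first because they hold the letters of a kappa B site. Each is the 250 bases before the RefSeq transcription start (GRCh38.p14), on the gene's strand, with the kappa B match in capitals: CXCL1 at chr4:73869143-73869392 (plus strand), CXCL5 at chr4:73998678-73998927 (minus strand) and LCN2 at chr9:128149203-128149452 (plus strand).
CXCL1: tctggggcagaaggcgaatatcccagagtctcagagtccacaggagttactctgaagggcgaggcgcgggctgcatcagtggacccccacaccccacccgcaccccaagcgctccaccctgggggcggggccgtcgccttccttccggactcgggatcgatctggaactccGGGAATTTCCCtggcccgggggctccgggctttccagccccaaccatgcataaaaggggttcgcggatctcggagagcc
CXCL5: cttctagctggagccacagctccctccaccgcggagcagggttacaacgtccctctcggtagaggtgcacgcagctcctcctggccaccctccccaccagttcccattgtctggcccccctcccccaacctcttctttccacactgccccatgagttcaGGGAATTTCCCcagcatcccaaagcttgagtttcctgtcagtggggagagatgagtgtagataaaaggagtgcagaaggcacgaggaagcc
LCN2: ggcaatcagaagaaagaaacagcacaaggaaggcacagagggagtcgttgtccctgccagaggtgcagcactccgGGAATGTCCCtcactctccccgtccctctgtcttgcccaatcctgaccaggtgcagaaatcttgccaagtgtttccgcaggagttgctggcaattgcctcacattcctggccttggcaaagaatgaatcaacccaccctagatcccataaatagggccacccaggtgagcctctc
The match begins 79 bases before the start in CXCL1, 91 in CXCL5 and 175 in LCN2, and the first pair share the same palindromic letters. Of the 6 called genes of the acute-phase and NF-kB lists, 5 had a promoter in the table, and 3 of those 5 held a kappa B match on either strand. The same search matched 5.84% of the 11418 tested genes with a promoter of that length, and 5.05% of all 27305 promoters. It also matched 2 of the 10 called DNA replication and mitosis genes with a promoter, and 6 of all 34 genes that rose and had one. A match is a description of the letters and shows no binding.

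Acute-phase and chemokine genes were among the largest rises. In the acute-phase list, 4 of 10 tested genes rose and 0 fell, with a list median log2 change of 0.16. In the list of NF-kB cytokines and feedback genes 2 of 20 rose and 0 fell, with a median of 0.08. Over all genes tested 0.248% rose and 0.124% fell, with a median of -0.000192. The lists were chosen with earlier results of these data known. Sibjeondaebo-tang 20 µg/mL replicate 2 touches the list counts: without it, 3 acute-phase and 2 NF-kB genes were called. A fit of all 60 libraries called 2 acute-phase genes, and with no filter on low counts 5 NF-kB genes were called.

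SAA2 (chr11:18239223-18248643, GRCh38), which encodes serum amyloid A2, an acute-phase protein released in inflammation, rose most among genes of at least 5 CPM, ahead of RAB43, a trafficking GTPase (0.51 ± 0.11, 5.38 CPM at 100 µg/mL), whose call was lost in 8 of the 10 fits without 1 library and with DESeq2. Its level was 17.3, 15.4 and 20.5 CPM with Sibjeondaebo-tang replicates 1, 2 and 3 at 20 µg/mL and 21.4 and 19.3 CPM with Palmul-tang replicates 2 and 3. At 100 µg/mL the levels in the same order were 26.8, 25.8, 28.4, 29.03 and 26.02 CPM. Every 100 µg/mL library lay above every 20 µg/mL library, and the vehicle lay below both doses at 10.7 ± 0.538 CPM (SD, n = 3). The log2 change was 0.54 ± 0.07 (SE; adjusted p = 0.00227, edgeR), and it was 0.60 ± 0.08 with Sibjeondaebo-tang and 0.44 ± 0.10 with Palmul-tang. The neighbouring and nearly identical SAA1 went from a mean of 76.1 to 85.0 CPM (log2 change 0.16 ± 0.04, adjusted p = 0.109, edgeR), and the split of reads between the 2 genes is uncertain.

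CFB (chr6:31945650-31952084), complement factor B of the alternative pathway, stood at 9.56, 8.43, 9.71, 8.65 and 10.2 CPM at 20 µg/mL, in the library order given for SAA2. At 100 µg/mL it stood at 13.8, 13.03, 10.7, 13.1 and 12.7 CPM. Sibjeondaebo-tang replicate 3 was the lowest of the 100 µg/mL libraries, and the doses still did not overlap. This was a log2 change of 0.45 ± 0.07 (adjusted p = 0.00826, edgeR), a call that DESeq2 did not make. Of the 17 tested genes of coagulation and complement, CFB alone was called.

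LCN2 (chr9:128149071-128153455) encodes lipocalin 2, which binds bacterial iron carriers. It stood at 18.9, 20.4, 21.2, 20.1 and 21.1 CPM at 20 µg/mL and at 23.8, 25.5, 27.7, 24.9 and 25.4 CPM at 100 µg/mL, with no overlap. That is a log2 change of 0.33 ± 0.05 (adjusted p = 0.00356, edgeR), lost in the fit of all 60 libraries. SERPINA3, alpha-1-antichymotrypsin, went from 49.6 ± 3.73 to 59.1 ± 4.29 CPM (SD, n = 5 each), with overlapping doses and a log2 change of 0.25 ± 0.05 (adjusted p = 0.0322, edgeR). This call was lost in 7 of the 10 fits that each left out 1 library and in the fit of all 60. Its reads may be shared with ENSG00000273259 (chr14:94592058-94624646), a protein-coding model that spans SERPINA3 and rose by 0.20 ± 0.04. SERPINA1, alpha-1-antitrypsin, had a log2 change of -0.17 ± 0.05 (adjusted p = 0.165, edgeR), and the abundant C3 had -0.01 ± 0.03.

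**Figure D1:**
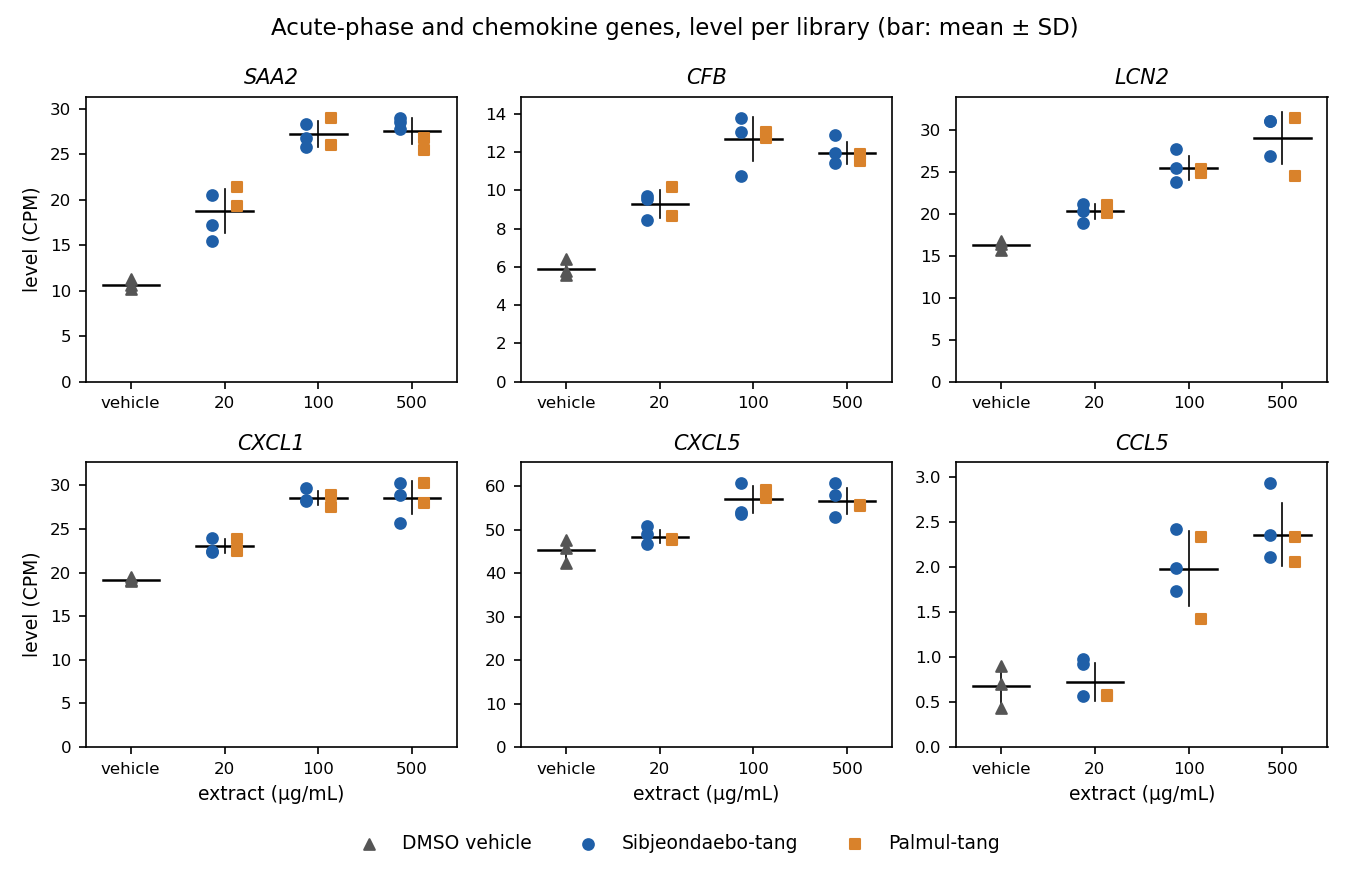
Level in CPM (vertical axis, from 0) of 6 acute-phase and chemokine genes in the DMSO vehicle libraries and at 20, 100 and 500 µg/mL (horizontal axis), 1 point per library, with circles for Sibjeondaebo-tang, squares for Palmul-tang and bars for mean ± SD. In each panel all 5 libraries at 100 µg/mL lie above all 5 at 20 µg/mL.

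CXCL1 and CXCL5 draw neutrophils through the receptor CXCR2, and they lie in the chemokine cluster of chromosome 4. CXCL1 (chr4:73869393-73871242) stood at 22.4, 22.4, 24.0, 23.8 and 22.5 CPM at 20 µg/mL and at 29.7, 28.1, 28.3, 28.9 and 27.5 CPM at 100 µg/mL. CXCL5 (chr4:73995642-73998779) stood at 50.9, 49.0, 46.8, 47.9 and 47.6 CPM at 20 µg/mL and at 60.7, 54.2, 53.7, 57.3 and 59.1 CPM at 100 µg/mL. Neither gene's doses overlapped. CXCL1 rose by 0.31 ± 0.04 on the log2 scale (adjusted p = 0.00227, edgeR) and CXCL5 by 0.24 ± 0.04 (adjusted p = 0.00826, edgeR).

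Other members of the NF-kB list showed positive values that missed the threshold. CXCL8, the chemokine interleukin 8, had means of 3.29 ± 0.271 and 4.44 ± 0.454 CPM (SD, n = 5 each), a log2 change of 0.43 ± 0.10 and an adjusted p of 0.0584 (edgeR). CXCL2 had 0.34 ± 0.09 (adjusted p = 0.124, edgeR) and TNFAIP3, the feedback inhibitor A20, had 0.17 ± 0.04 (adjusted p = 0.0804, edgeR). NFKBIA, the inhibitor of NF-kB, had -0.07 ± 0.03, and the subunit genes NFKB1, NFKB2 and RELB had 0.03 ± 0.04, 0.04 ± 0.04 and 0.09 ± 0.07.

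Some called genes of inflammation or defence lie outside these lists. CCL5, a chemokine for T cells, stood at 0.974, 0.568, 0.921, 0.566 and 0.579 CPM at 20 µg/mL and at 1.74, 2.42, 1.99, 1.43 and 2.33 CPM at 100 µg/mL, a log2 change of 1.45 ± 0.20 (adjusted p = 0.00243, edgeR; not called by DESeq2). The mitochondrial superoxide dismutase gene SOD2 went from 190 ± 6.47 to 219 ± 7.96 CPM (SD, n = 5 each), a log2 change of 0.21 ± 0.03 (adjusted p = 0.00723, edgeR). PI3, which encodes the elastase inhibitor elafin, went from 15.8 ± 0.568 to 19.6 ± 1.52 CPM, a log2 change of 0.31 ± 0.06 (adjusted p = 0.0129, edgeR), lost without 2 of the libraries and in the fit of all 60. For all 3 genes the doses did not overlap.

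The other large group of rises held genes of DNA replication and mitosis, each up by a small fraction of its level. Of the 24 mitosis (G2/M) genes, 8 rose and 0 fell, 24 had a positive log2 change and the median was 0.15. Of the 24 replication (G1/S) genes, 3 rose and 0 fell, 23 were positive, the exception being CCNE1 at -0.01, and the median was 0.13. Over all 16153 genes tested, 40 rose, 20 fell and 8055 had a positive log2 change. The members of each list are co-expressed, so the list counts are not counts of independent events. DESeq2 called 12 and 6 genes of these lists, and the fit with no filter on low counts 18 and 11. Without Sibjeondaebo-tang 20 µg/mL replicate 2 the counts were 6 and 3. The mitosis count was 2 without each of Sibjeondaebo-tang 20 µg/mL replicates 1 and 3, Sibjeondaebo-tang 100 µg/mL replicate 2 and Palmul-tang 20 µg/mL replicate 3, it was 3 without Sibjeondaebo-tang 100 µg/mL replicate 1 and 5 without Palmul-tang 100 µg/mL replicate 3, and it was 4 in the fit of 15 libraries that includes 500 µg/mL. The replication count was 6 in the fit of all 60 libraries.

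Averaged over each list, the libraries fell in the order of dose. The mean log2 CPM of the mitosis genes was 6.03 to 6.07 over the 20 µg/mL libraries, 6.16 to 6.23 at 100 µg/mL and 6.33 to 6.39 at 500 µg/mL. The vehicle libraries, at 6.18 to 6.23, lay in the range of the 100 µg/mL libraries and above those at 20 µg/mL. For the replication genes the ranges were 5.43 to 5.48 at 20 µg/mL, 5.55 to 5.62 at 100 µg/mL, 5.69 to 5.72 at 500 µg/mL and 5.65 to 5.71 in the vehicle. The vehicle libraries carry sample codes of a set of their own, so vehicle and set cannot be told apart, and the vehicle was not tested here.

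Promoters of 4 of these genes are printed because they hold CCAAT boxes, in 3 of them together with a CHR element. The sequences are again the 250 bases before the RefSeq start on the gene's strand (GRCh38.p14): RRM2 at chr2:10122489-10122738 (plus), CCNB2 at chr15:59104896-59105145 (plus), CDC20 at chr1:43358731-43358980 (plus) and TOP2A at chr17:40417897-40418146 (minus). Capitals mark CCAAT or its reverse complement ATTGG, and TTTGAA or its reverse complement TTCAAA.
RRM2: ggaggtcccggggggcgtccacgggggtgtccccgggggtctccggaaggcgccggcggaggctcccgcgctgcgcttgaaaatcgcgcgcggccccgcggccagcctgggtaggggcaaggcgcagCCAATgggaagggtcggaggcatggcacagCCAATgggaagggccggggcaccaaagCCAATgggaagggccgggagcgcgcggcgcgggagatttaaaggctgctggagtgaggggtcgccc
CCNB2: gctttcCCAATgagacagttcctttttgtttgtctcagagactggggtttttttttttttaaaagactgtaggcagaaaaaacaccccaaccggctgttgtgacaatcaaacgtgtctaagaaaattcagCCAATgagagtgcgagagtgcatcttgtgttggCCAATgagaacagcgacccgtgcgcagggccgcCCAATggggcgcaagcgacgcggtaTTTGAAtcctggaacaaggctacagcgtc
CDC20: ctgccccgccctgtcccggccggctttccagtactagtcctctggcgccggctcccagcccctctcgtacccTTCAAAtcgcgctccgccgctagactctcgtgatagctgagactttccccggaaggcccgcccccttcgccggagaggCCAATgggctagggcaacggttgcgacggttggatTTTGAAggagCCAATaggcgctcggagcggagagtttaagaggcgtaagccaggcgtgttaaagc
TOP2A: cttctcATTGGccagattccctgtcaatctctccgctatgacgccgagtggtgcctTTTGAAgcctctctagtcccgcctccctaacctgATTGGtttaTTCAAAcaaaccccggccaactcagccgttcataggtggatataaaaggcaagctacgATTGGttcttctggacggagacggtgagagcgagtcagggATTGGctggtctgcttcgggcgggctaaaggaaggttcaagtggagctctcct
Of the 11 called genes of the replication and mitosis lists, 10 had a promoter in the table, and 10 of 10 held CCAAT on either strand, against 34.8% of the tested genes with a promoter and 33.0% of all promoters. TTTGAA on either strand was found in 4 of the 10, against 8.63% of the tested genes. In CCNB2 and CDC20 a TTTGAA lies 29 and 65 bases before the start, close to a CCAAT at 54 and 55 bases. RRM2 has 3 CCAAT boxes and no TTTGAA in this window, and it also has 2 kappa B matches, not capitalised.

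RRM2 (chr2:10120698-10131419) encodes the small subunit of ribonucleotide reductase, which makes the building blocks of DNA. It stood at 182, 188, 186, 183 and 180 CPM at 20 µg/mL and at 219, 210, 210, 207 and 202 CPM at 100 µg/mL. No library of one dose reached the other. The log2 change was 0.19 ± 0.03 (adjusted p = 0.00243, edgeR).

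MCM7, a subunit of the helicase that opens replication origins, stood at 142, 133, 138, 143 and 141 CPM at 20 µg/mL and at 157, 156, 153, 159 and 157 CPM at 100 µg/mL. The doses did not overlap, and the log2 change was 0.17 ± 0.03 (adjusted p = 0.00723, edgeR). MCM6, another subunit, also rose (0.14 ± 0.03, adjusted p = 0.0395, edgeR), a call lost in 9 of the 10 fits that left out 1 library. The subunits MCM2, MCM3, MCM4 and MCM5 had 0.13 ± 0.04, 0.12 ± 0.03, 0.13 ± 0.03 and 0.12 ± 0.03, none called. PCNA, the sliding clamp, had 0.11 ± 0.03 (adjusted p = 0.187, edgeR).

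TOP2A (chr17:40388516-40417950), the topoisomerase that untangles chromosomes, stood at 259, 269, 261, 257 and 262 CPM at 20 µg/mL. At 100 µg/mL it stood at 306, 303, 278, 296 and 298 CPM, with Sibjeondaebo-tang replicate 3 lowest and no overlap. TOP2A rose by 0.18 ± 0.03 on the log2 scale (adjusted p = 0.00912, edgeR). Cyclin B2 (CCNB2), a partner of the mitotic kinase CDK1, stood at 61.4, 56.4, 62.6, 65.2 and 59.9 CPM at 20 µg/mL and at 70.3, 73.0, 70.3, 68.3 and 69.8 CPM at 100 µg/mL. Its log2 change was 0.21 ± 0.04 (adjusted p = 0.0149, edgeR), lost without 2 of the libraries.

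CDC20, the activator of the anaphase-promoting complex, went from 64.0 ± 2.02 to 72.0 ± 2.40 CPM (SD, n = 5 each) with a log2 change of 0.17 ± 0.03 (adjusted p = 0.0246, edgeR). The checkpoint kinase BUB1 went from 58.3 ± 1.91 to 66.3 ± 2.61 CPM, a log2 change of 0.19 ± 0.04 (adjusted p = 0.0175, edgeR). Neither gene overlapped between doses. The CDC20 call was lost in 7 of the 10 fits that left out 1 library and the BUB1 call in 4. TPX2, CENPF, KIF11 and KIF20A, which build or move the spindle and kinetochores, rose by 0.16 to 0.18 on the log2 scale, and each was lost in 5 to 8 of those fits and in the fit of 15 libraries. MKI67, the proliferation antigen Ki-67, had 0.12 ± 0.04 with overlapping doses (adjusted p = 0.348, edgeR).

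Some genes outside the lists but known for the same processes were called as well. MYBL2, the transcription factor named above, went from 72.0 ± 1.63 to 82.5 ± 0.464 CPM (SD, n = 5 each), and its 5 libraries at 100 µg/mL spanned only 82.0 to 83.1 CPM. MYBL2 rose by 0.20 ± 0.03 on the log2 scale (adjusted p = 0.00295, edgeR). HJURP, which places the centromere histone, had 0.23 ± 0.04, CEP55, which acts in the final cut between daughter cells, had 0.21 ± 0.03, and securin (PTTG1) had 0.21 ± 0.03, all called, though PTTG1 not in the fit of all 60 libraries. TUBA1B rose from 1375 to 1545 CPM, with reads that may be split among near-identical tubulin genes, and was not called in that fit either. Histone transcripts were split in direction. Of 12 tested, 0 were called (DESeq2 also 0), and 4 were higher and 5 lower at an unadjusted p under 0.05. Over all genes tested the shares at that threshold were 4.91% higher and 4.33% lower. The histone median was -0.08, with 0.14 ± 0.04 for H2AZ1 and -0.27 ± 0.08 for H4C8.

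**Figure D2:**
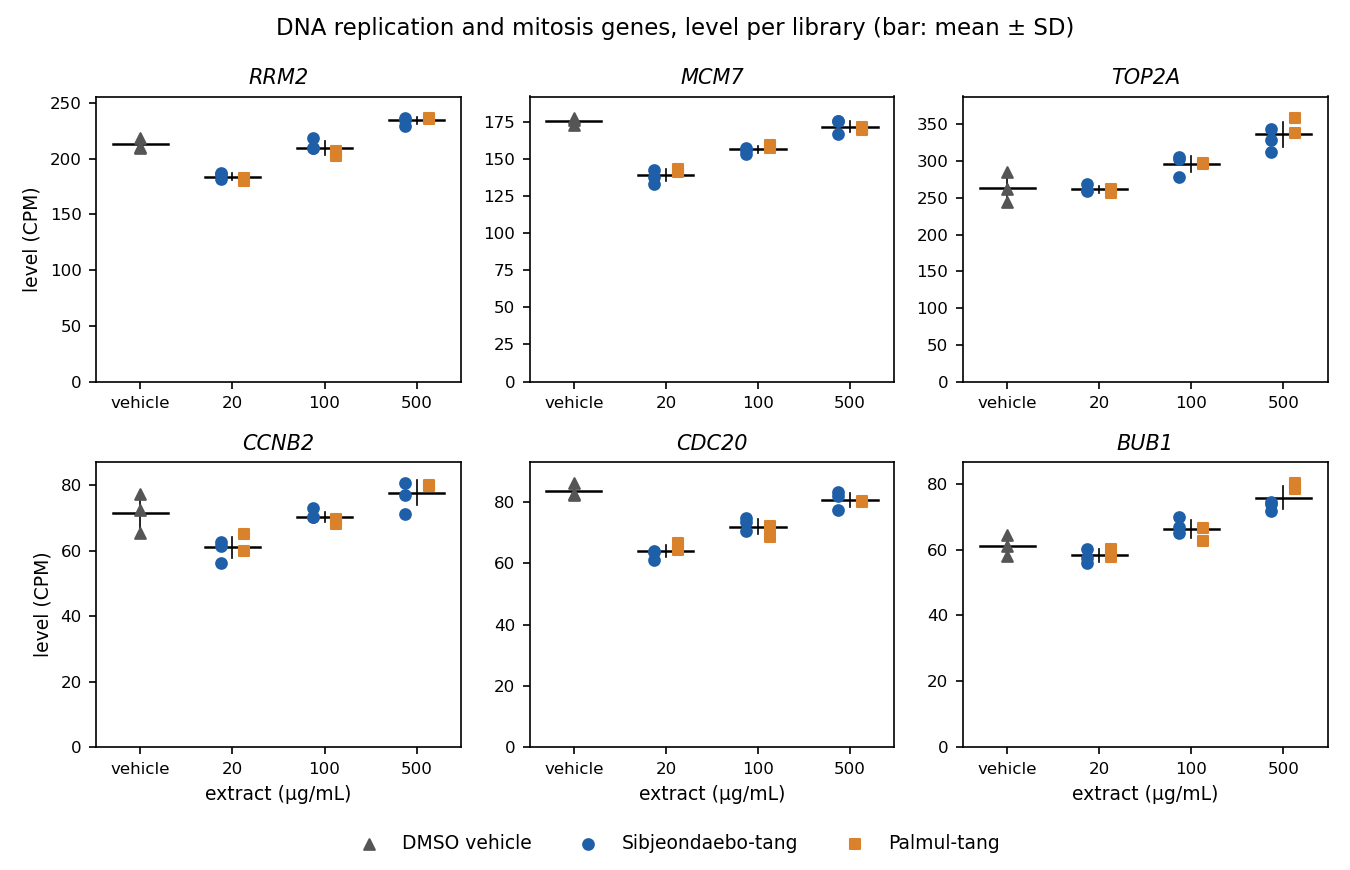
Level in CPM (vertical axis, from 0) of 6 DNA replication and mitosis genes by vehicle and extract dose (horizontal axis, µg/mL), 1 point per library, with circles for Sibjeondaebo-tang, squares for Palmul-tang and bars for mean ± SD. The mean rises from 20 to 100 to 500 µg/mL in every panel, and for RRM2, MCM7, CCNB2 and CDC20 the vehicle mean lies above the mean at 100 µg/mL.

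Genes that fell were fewer, 20 against 40. FCGBP (chr19:39863323-39934626), a mucus protein that binds IgG Fc, stood at 22.6, 19.5, 21.9, 19.1 and 19.7 CPM at 20 µg/mL and at 13.5, 13.7, 15.2, 15.2 and 16.9 CPM at 100 µg/mL. The doses did not overlap, and the vehicle was lower than both at 11.2 ± 1.02 CPM (SD, n = 3). The log2 change was -0.46 ± 0.07 (adjusted p = 0.00295, edgeR), with -0.59 ± 0.07 for Sibjeondaebo-tang and -0.27 ± 0.09 for Palmul-tang.

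In the list of secreted Wnt, Nodal and growth-factor modulators, 2 of 10 tested genes fell and 0 rose, with a median of -0.13. Over all genes tested 0.124% fell and 0.248% rose. Without Sibjeondaebo-tang 20 µg/mL replicate 2 there were 3 falls in this list. LEFTY1 (chr1:225886282-225911382), an inhibitor of Nodal signalling, stood at 22.4, 21.4, 25.2, 21.9 and 25.0 CPM at 20 µg/mL and at 17.4, 16.4, 18.5, 18.8 and 18.04 CPM at 100 µg/mL. FGFBP1 (chr4:15935569-15938740), which releases fibroblast growth factors from the matrix, stood at 16.4, 15.2, 15.0, 14.9 and 17.1 CPM and then at 11.8, 13.03, 11.1, 12.7 and 12.2 CPM. Both genes were lower in every 100 µg/mL library than in any at 20 µg/mL. LEFTY1 had a log2 change of -0.38 ± 0.06 (adjusted p = 0.00356, edgeR) and FGFBP1 one of -0.37 ± 0.06 (adjusted p = 0.00723, edgeR; not called by DESeq2). DKK1, a secreted Wnt inhibitor, had -0.16 ± 0.05 (adjusted p = 0.217, edgeR).

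Other falls included PGC, the precursor of a pepsin that lung surfactant-producing cells also make, at 34.2 ± 1.76 and 28.4 ± 1.11 CPM (SD, n = 5 each; log2 change -0.27 ± 0.04, adjusted p = 0.00723, edgeR). Cystatin SN (CST1), a protease inhibitor, went from 25.9 ± 1.94 to 21.1 ± 1.00 CPM (-0.29 ± 0.05, adjusted p = 0.00826, edgeR; lost in the fit of all 60 libraries). PAQR5, a membrane progestin receptor, went from 95.7 ± 1.11 to 83.9 ± 3.17 CPM (-0.19 ± 0.03, adjusted p = 0.00407, edgeR). The doses did not overlap for any of the 3 genes. The water channel AQP3 had -0.17 ± 0.03, the NAD-consuming surface enzyme CD38 -0.16 ± 0.03 and neurotensin (NTS) -0.18 ± 0.04, all called, and these calls were lost in 4, 3 and 8 of the 10 fits that left out 1 library. CD38 and NTS were also lost in the fit of all 60 libraries, and AQP3 in that of 15.

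IGFL2-AS1 (chr19:46189166-46203083), an antisense transcript, stood at 15.2, 15.2, 14.3, 15.2 and 14.5 CPM at 20 µg/mL and at 11.3, 10.7, 10.3, 11.2 and 12.3 CPM at 100 µg/mL. The log2 change was -0.41 ± 0.06 (adjusted p = 0.00243, edgeR; not called by DESeq2). Whether the counting used strand is not given in the sources used here, so reads of its sense partner may be included. Of the 60 called genes, 7 had means under 5 CPM at both doses, among them TNFRSF6B. TNFRSF6B had 0 rounded counts in all 5 libraries at 100 µg/mL and 0.268 ± 0.252 CPM at 20 µg/mL (SD, n = 5). Its counts at 20 µg/mL came only from Sibjeondaebo-tang, with 0 CPM in both Palmul-tang libraries. Its call was lost with DESeq2, in the fits of 60 and 15 libraries, without the covariate and without Sibjeondaebo-tang 20 µg/mL replicate 3. ENSG00000257524, a protein-coding model with no approved symbol and not called by DESeq2, went from 2.10 ± 0.448 to 0.413 ± 0.318 CPM. It was at 2.09 CPM at 500 µg/mL.

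**Figure D3:**
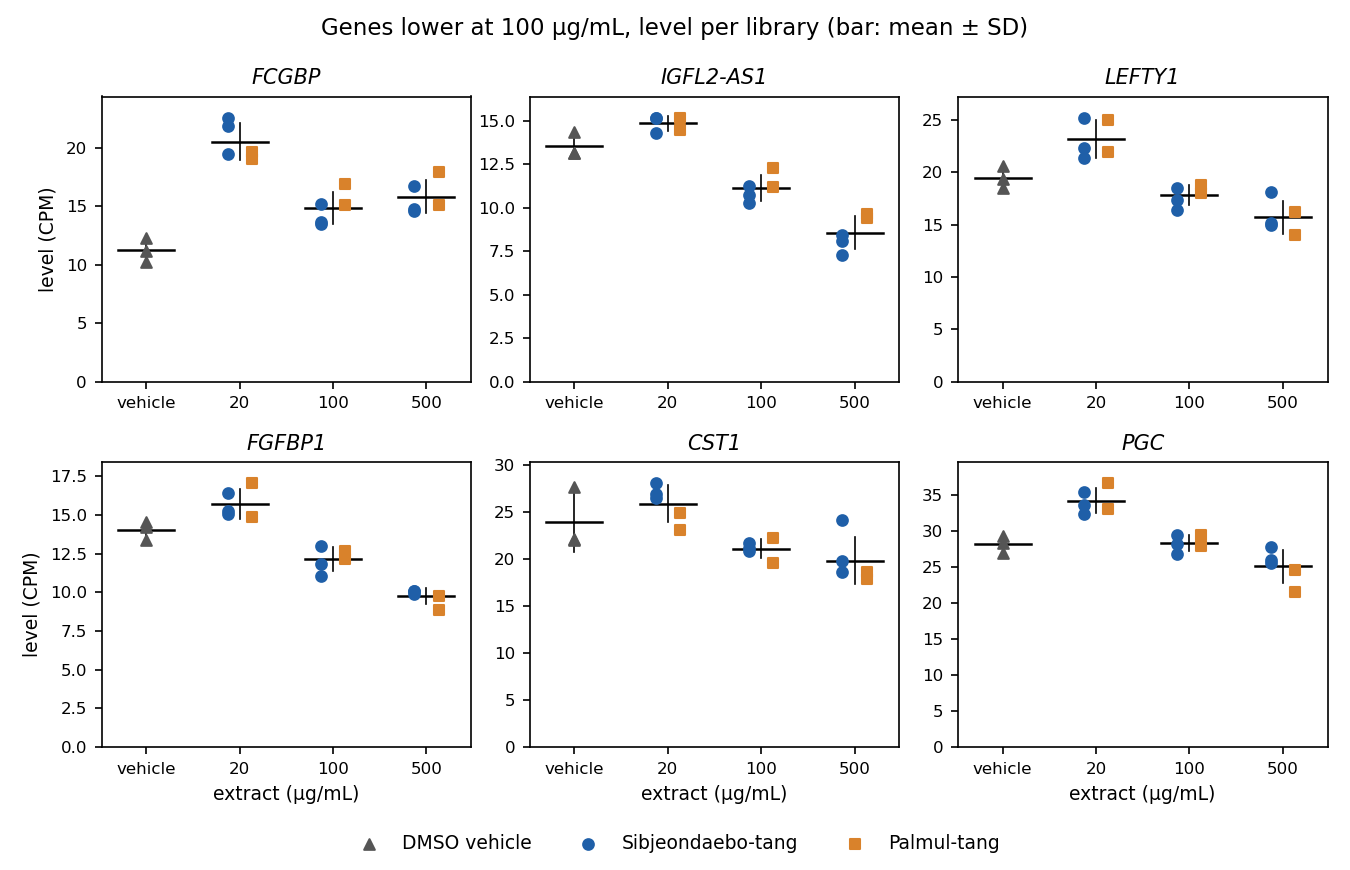
Level in CPM (vertical axis, from 0) of 6 genes that fell, by vehicle and extract dose (horizontal axis, µg/mL), 1 point per library, with circles for Sibjeondaebo-tang, squares for Palmul-tang and bars for mean ± SD. FGFBP1 and IGFL2-AS1 continue down at 500 µg/mL, whereas FCGBP stands at 15.8 CPM there, close to its 14.9 CPM at 100 µg/mL.

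At the share of 0.371% called over all genes tested, a short list would mostly hold no called gene. Most of the 40 gene lists held none. In 34 of them edgeR called 0 members, among them 9 tested targets of the aryl hydrocarbon receptor (xenobiotic enzymes; 2 higher and 1 lower at an unadjusted p under 0.05), 26 NRF2 targets (antioxidant genes; 2 higher and 3 lower), 25 ATF4 targets (amino acid stress; 4 higher and 0 lower), 25 genes of cholesterol synthesis and uptake (2 higher and 1 lower) and 22 p53 targets (0 higher and 0 lower). The medians of these 5 lists were within 0.02 of 0 on the log2 scale. DESeq2 called 1 NRF2 target higher and 2 lower, and it called 1 or 2 genes in each of the lists of amino acid transporters, interferon response, YAP and TEAD targets, hypoxia and glycolysis, nuclear long noncoding RNAs and A549 identity. Without Sibjeondaebo-tang 20 µg/mL replicate 2, edgeR called 2 NRF2 targets and 1 A549 identity gene lower. CYP1B1, a detoxifying P450 enzyme, had 0.11 ± 0.03 with doses that did not overlap but an adjusted p of 0.223 (edgeR). HMOX1 had 0.04 ± 0.04, ASNS 0.10 ± 0.04, CDKN1A -0.01 ± 0.03, HMGCS1 0.01 ± 0.03 and DDIT3 0.01 ± 0.10. CYP1A1 did not pass the filter on low counts.

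**Figure D4:**
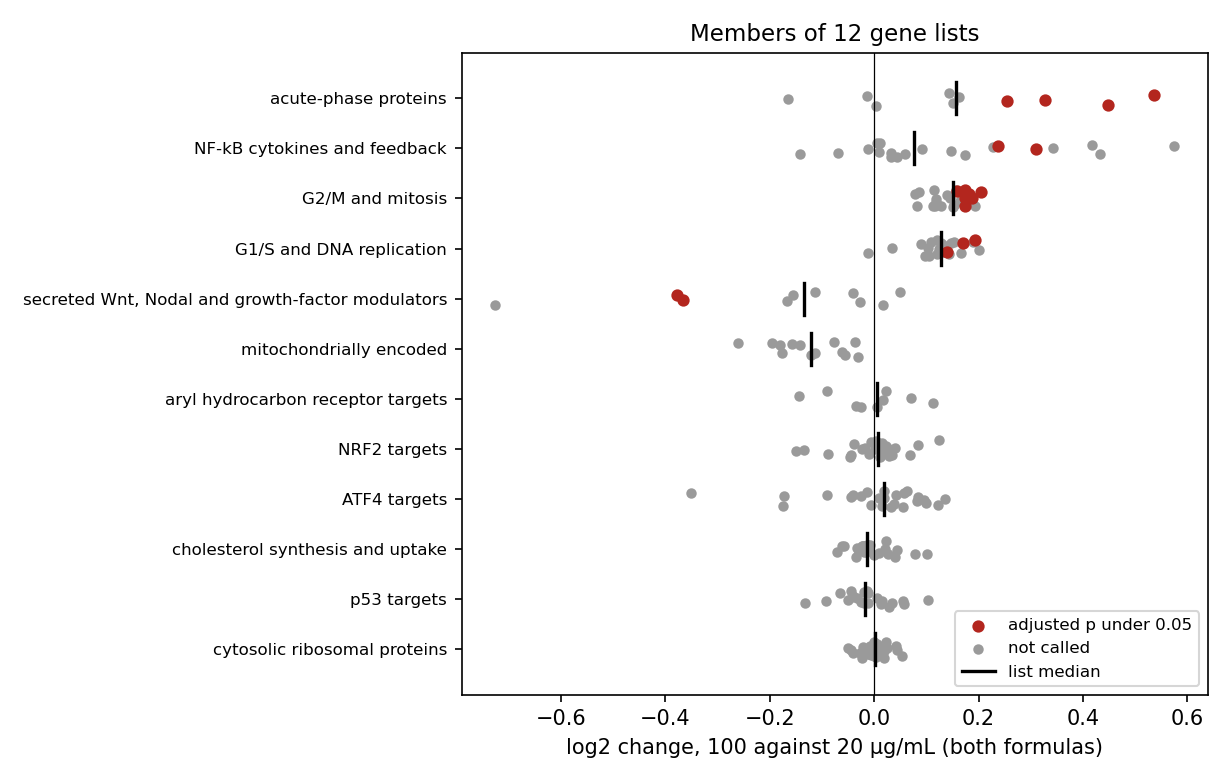
Log2 change at 100 against 20 µg/mL (horizontal axis) of every tested member of 12 gene lists (rows), 1 point per gene, with red points for adjusted p under 0.05 and a black bar for the list median. The called points lie to the right in the acute-phase, NF-kB, G2/M and G1/S rows, with medians of 0.16, 0.08, 0.15 and 0.13, and to the left in the row of secreted modulators, with a median of -0.13.

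The formulas were then compared with each other. Alone, Sibjeondaebo-tang had 9 called genes (0.0557%) and Palmul-tang, with 2 libraries a dose, had 0 (1089 at an unadjusted p under 0.05, and 13 by DESeq2). Leaving out Sibjeondaebo-tang 20 µg/mL replicate 1 left 0 calls for that formula, leaving out its 100 µg/mL replicates 2 and 3 left 2 and 1, and leaving out Palmul-tang 100 µg/mL replicate 3 gave 6 calls for Palmul-tang. The difference between the formulas' dose changes was called for 0 genes (edgeR; 800 at an unadjusted p under 0.05, and 0 by DESeq2). Chance alone would let about 1 in 20 of the 16153 genes tested pass the unadjusted threshold. Among the called genes FCGBP had the smallest p for that difference, at -0.32 ± 0.12 (Sibjeondaebo-tang minus Palmul-tang, adjusted p = 0.975, edgeR), followed by HJURP at 0.16 ± 0.07. For SAA2 the difference was 0.17 ± 0.13, for CXCL5 -0.08 ± 0.08, for RRM2 0.03 ± 0.05 and for FGFBP1 -0.02 ± 0.12, and an interval of 2 SEs either way spans 0 for all 4. The sign of the change was the same in both formulas for 59 of the 60 called genes. The exception was TNFRSF6B, whose fitted change with Palmul-tang was 0. The 60 genes were called on both formulas pooled, which favours genes of like sign, so this count does not show that the formulas act alike.

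Set beside the 500 µg/mL libraries of the same formulas (3 and 2 libraries), the values at the higher step differed from gene to gene. These comparisons share the 20 or the 100 µg/mL libraries with the step described above, so the values stand side by side without a test of likeness. The 500 against 20 µg/mL comparison called 1500 genes (9.29%), and 500 against 100 µg/mL called 197 (1.22%). SAA2, CXCL1, CXCL5 and CFB were no higher at 500 than at 100 µg/mL beyond their error: the log2 change from 100 to 500 µg/mL was 0.02 ± 0.06, 0.00 ± 0.05, -0.01 ± 0.04 and -0.09 ± 0.07, with adjusted p from 0.69 to 0.993 (edgeR). For SOD2 it was -0.04 ± 0.03. The other called acute-phase genes had positive values that were not called, 0.19 ± 0.06 for LCN2 (adjusted p = 0.151, edgeR) and 0.15 ± 0.05 for SERPINA3 (adjusted p = 0.161, edgeR). RRM2, MCM7, TOP2A, CDC20 and BUB1 went up again by 0.16 ± 0.03, 0.13 ± 0.03, 0.18 ± 0.04, 0.16 ± 0.03 and 0.19 ± 0.04, each called (adjusted p from 0.0039 to 0.0178, edgeR). CENPF, KIF11 and KIF20A were called as well, with 0.17 ± 0.04, 0.16 ± 0.04 and 0.19 ± 0.04, whereas CCNB2, TPX2 and MCM6 were not, with 0.14 ± 0.04, 0.14 ± 0.04 and 0.09 ± 0.03 (adjusted p from 0.0861 to 0.165, edgeR). For CENPF, KIF11 and KIF20A the step from 20 to 100 µg/mL was not called in the fit of 15 libraries that gave these values. No difference between the acute-phase and the cell-cycle genes in the step from 100 to 500 µg/mL was tested. FGFBP1 and IGFL2-AS1 went down again by -0.32 ± 0.06 and -0.38 ± 0.06, both called, and LEFTY1 had -0.19 ± 0.07 (adjusted p = 0.22, edgeR). AQP3 fell at the first step in the fit of 10 libraries, a call not made in the fit of 15 that includes 500 µg/mL. In the fit of 15 it was 0.24 ± 0.04 higher at 500 than at 100 µg/mL (adjusted p = 0.00221, edgeR). Its change from 20 to 500 µg/mL was 0.07 ± 0.04 (adjusted p = 0.279, edgeR), with means of 68.8, 61.0 and 72.2 CPM over the doses. Several genes not called at the lower step differed widely at the higher one, among them ID2, an inhibitor of differentiation factors, with 20.8, 18.5 and 12.97 CPM, DKK1 with 81.3, 72.8 and 53.6 CPM, and ALDH3A1, an aldehyde dehydrogenase, with 1022, 1032 and 1281 CPM at 20, 100 and 500 µg/mL.

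The same dose step was available for the ethanol extracts of 4 single herbs, Poria Cocos, Atractylodis Rhizoma, Glycyrrhizae Radix and Panax Ginseng, with 3 libraries a dose. This comparison was added after the data were seen and was made in the fit of all 60 libraries. In that fit, Poria Cocos 20 µg/mL replicate 3 stood apart with 27941 genes detected, against 21653 to 23424 in the other libraries. No fit without it was made, so its weight in the herb values was not tested. Herbs and formulas differ in solvent and in the set of sample codes as well, so these cannot be told apart from the herbs themselves. The mean step over the herbs was called for 61 genes (0.378%), and the step of the formulas differed from it for 9 genes (0.0557%): SAA2, CFB, CXCL1, CXCL5, CCL5, SOD2, CPLX2, CA9 and AQP3. All of these except CA9 are among the 60 genes called for the formulas.

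In the herbs the values of the acute-phase and chemokine genes were mostly below 0. For SAA2 the step was 0.09 ± 0.10 with Poria Cocos, -0.16 ± 0.12 with Atractylodis Rhizoma, -0.30 ± 0.11 with Glycyrrhizae Radix and -0.16 ± 0.12 with Panax Ginseng. The formulas exceeded the herbs' mean by 0.67 ± 0.09 for SAA2 (adjusted p = 1.43e-05, edgeR), by 0.58 ± 0.09 for CFB (adjusted p = 0.000202, edgeR) and by 0.48 ± 0.09 for CXCL1 (adjusted p = 0.0142, edgeR). For LCN2 the difference was 0.38 ± 0.13 and was not called (adjusted p = 0.953, edgeR). For AQP3 the herbs were unlike one another, with 0.59 ± 0.05 for Glycyrrhizae Radix and -0.07 to 0.04 for the other 3.

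Cell-cycle genes gave no called difference from the herbs. RRM2 had a mean step of 0.09 ± 0.02 over the herbs and a difference of 0.10 ± 0.04, and TOP2A had 0.10 ± 0.02 and 0.08 ± 0.05, with adjusted p of 1 for both differences (edgeR). LEFTY1 and PGC fell with Glycyrrhizae Radix, which alone called 142 genes (0.879%), by 0.77 and 0.79 on the log2 scale. Their difference from the herbs' mean was -0.08 ± 0.10 and 0.02 ± 0.08.

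**Figure D5:**
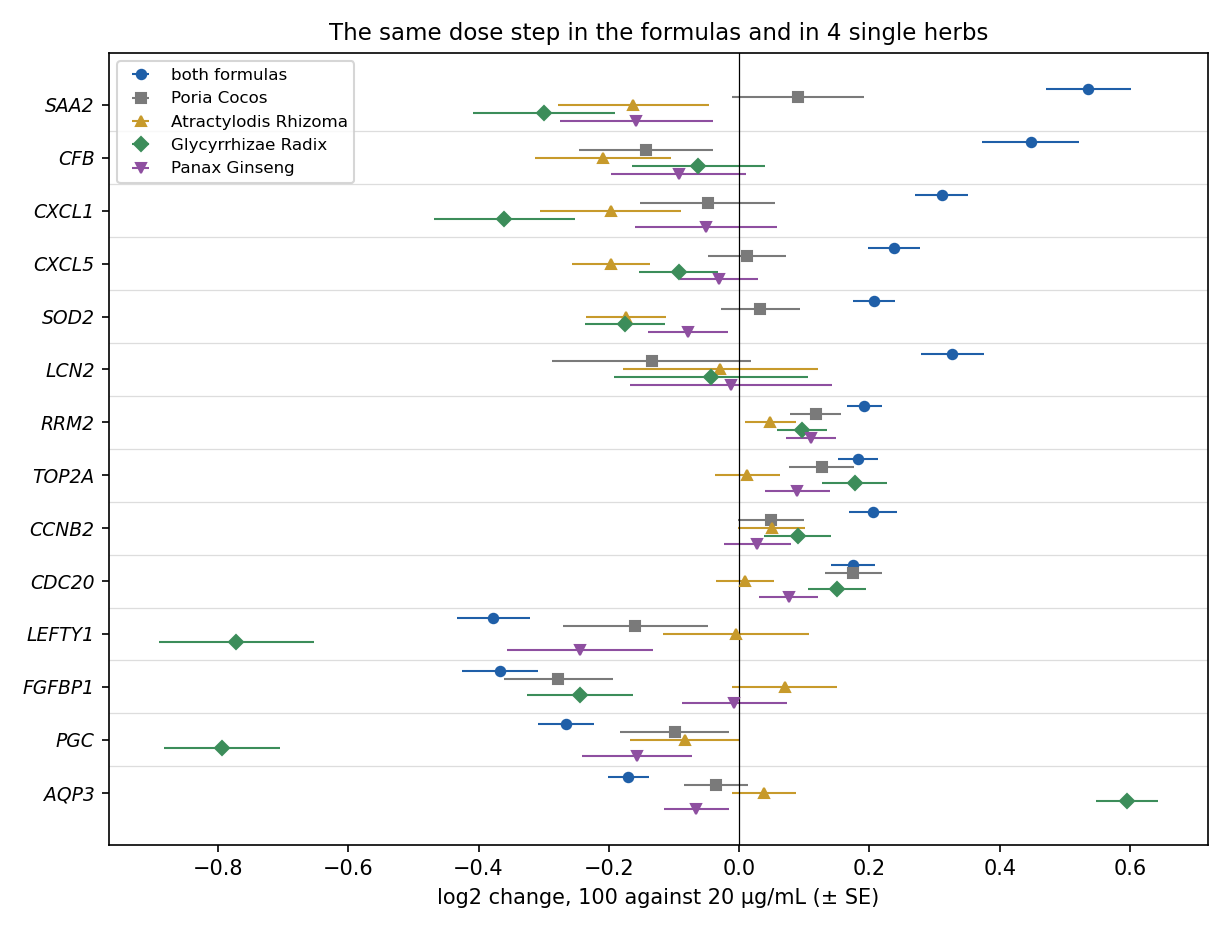
Log2 change at 100 against 20 µg/mL (horizontal axis, ± SE) of 14 genes (rows) for both formulas together (blue circles, fit of 10 libraries) and for 4 single herbs (fit of all 60 libraries). The formula points of SAA2, CFB, CXCL1, CXCL5, SOD2, LCN2, RRM2 and CCNB2 lie to the right of every herb point. Those of CDC20 and TOP2A lie close to the Poria Cocos or Glycyrrhizae Radix points.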

How the data were processed

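RNA sequencing of A549 cells was used in 10 of 60 libraries for the main comparison. The submitters' processing notes name FastQC 0.11.9 and Trim Galore 0.6.5 for read quality, STAR 2.7.3a for alignment, RSEM 1.3.3 for quantification and the build GRCh38. No annotation release or strand setting is given there. The authors deposited RSEM's expected counts as 1 table of 270 columns and 60675 gene identifiers. Its 60 columns of these libraries were used and 210 were not. Non-zero values were whole in 76.0% of cases (tolerance 1e-09), and every value was rounded before fitting.

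Symbols were found for 57055 identifiers through the gene name table and GENCODE 29, which also gave positions. Genes passing filterByExpr (16153) were scaled by TMM and fitted with edgeR 4.0.16 (R 4.3.3) by glmQLFit with extract as covariate, with a common biological variation of 4.13% and 7 residual degrees of freedom. Each SE was obtained as the absolute log2 change over the root of F. CPM values use TMM scaling over the 15 formula and 3 vehicle libraries. The fit was tested on simulated data.

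Members and lists were chosen with earlier results of these data known. Named genes are, among called genes of at least 5 CPM with an approved symbol, the 10 that rose most and the 10 that fell most, up to 4 called members of each of 40 lists, and 16 fixed genes. List members that were not called, and CCL5, SOD2, MYBL2, CEP55, PTTG1, TUBA1B, AQP3, CD38, NTS, CPLX2, CA9, CENPF, KIF11, KIF20A and the genes under 5 CPM, lie outside this rule, chosen once their values had been seen. Promoters are from RefSeq. SAA2 and CCL5 are named only. Tried as alternatives were RLE size factors, DESeq2 1.42.0, no low-count filter, other sets of libraries, no covariate, replicate blocks and leaving out each library. One called gene is not reported here.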

Additional observations from a re-analysis of the deposited data

Results flagged for a closer look

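In 5 of the 78 groups of 5 libraries examined for the 39 named genes, 1 library lay far from the other 4 relative to the range of the group; chance alone gives about 1 in 20. MCM6 at 20 µg/mL was lowest in Sibjeondaebo-tang replicate 2, at 70.78 CPM, with the other 4 between 73.41 and 73.96 CPM. DKK1 at 20 µg/mL was lowest in the same library, at 71.13 CPM against 82.65 to 86.60 CPM. CDKN1A at 20 µg/mL was again lowest there, at 135.4 CPM against 144.2 to 146.1 CPM. This is the library with the high mitochondrial share. ASNS at 20 µg/mL was highest in Sibjeondaebo-tang replicate 1, at 32.66 CPM against 30.16 to 30.77 CPM. DDIT3 at 100 µg/mL was highest in Sibjeondaebo-tang replicate 1, at 6.39 CPM against 4.867 to 5.287 CPM.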

How the results depend on the processing

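The pooled step gave 60 called genes, and 125 with DESeq2 and 285 with no filter on low counts, of which 49 and 60 were among the same 60 genes. Sibjeondaebo-tang gave 9, and 38, 180 and 15 with DESeq2, no filter and all 60 libraries. Palmul-tang gave 0, and 13 and 103 with DESeq2 and no filter. The difference between formulas gave 0, and 86 with no filter. The cause was not tested. Leaving out 1 library at a time gave 36 to 72 pooled calls, 0 to 8 for Sibjeondaebo-tang, 0 to 6 for Palmul-tang and 0 to 3 for the difference, and 28 of the 60 genes were called in all 10 such fits, among them SAA2, CXCL1, CXCL5, CFB, LCN2, RRM2, MCM7, TOP2A, FCGBP, LEFTY1 and FGFBP1. Scaling by RLE instead of TMM shifted libraries by at most 0.00217 log2 and gave 60 calls. Directions reversed only among genes that were not called, when 1 library was left out: CDKN1A to 0.0148 (range over these fits -0.03463 to 0.0148), HMGCS1 to -0.01063, -0.006332 and -0.004976 (up to 0.03176), and DDIT3 to -0.04908, -0.04654, -0.02036, -0.01342 and -0.006004 (up to 0.07206).

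Same-numbered libraries of 1 formula deviated together for Sibjeondaebo-tang replicate 1 (r = 0.192) but not for replicates 2 and 3 (r = -0.13 and -0.0158). Palmul-tang gave 0.079 for replicates 2 and 3 alike, because deviations from a mean of 2 libraries mirror each other. On these values the numbers were not taken as pairs. Deviations of same-numbered libraries of different formulas were not compared. With a replicate block of extract and number the pooled step gave 60 calls, 50 of them shared, and with a replicate block by number 51, 46 of them shared. The mitosis list then held 6 and 4 calls in place of 8 and the replication list 2 and 2 in place of 3, with CDC20, KIF20A, MCM6 and NTS lost under both blocks and CENPF, KIF11 and SERPINA3 under the block by number. At this depth genes under 1 CPM rest on few counts in each library.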
